A study of Mus musculus with 8 samples.

Results

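Ribosome biogenesis genes encode the factors that transcribe, modify, cut and assemble ribosomal RNA into ribosomal subunits, as opposed to the ribosomal proteins themselves. The 45 genes described here were Fbl, Npm1, Ncl, Nop56, Nop58, Nop2, Nop14, Nop16, Nip7, Dkc1, Gar1, Nhp2, Nop10, Bop1, Pes1, Wdr12, Wdr43, Wdr75, Rrp1b, Rrp9, Rrs1, Utp20, Utp15, Polr1a, Polr1b, Polr1c, Rrn3, Ubtf, Nolc1, Gnl3, Mybbp1a, Ebna1bp2, Ppan, Nob1, Bysl, Noc2l, Noc4l, Grwd1, Ddx21, Ddx18, Imp4, Tsr1, Ltv1, Pno1 and Nat10. They were found as all probe sets, the groups of short probes that measure 1 transcript, whose platform annotation names 1 of them. This gave 93 of the 45101 probe sets on the array. Each of the 45 genes passed the filter on low signal through at least 1 probe set, and 86 of the 93 probe sets lay above it, among 13174 of 18194 named genes tested.

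The data came from 8 Affymetrix arrays, 1 per sample, of total RNA labelled as mouse cerebral cortex, in a study whose title concerns the astroglial response to FGF2. There were 4 groups, each of 2 samples: a vehicle control, the growth factor FGF2 alone, FGF2 plus U0126, and FGF2 plus SB202190. U0126 is an inhibitor of MEK, the kinase that activates ERK, and SB202190 an inhibitor of the kinase p38. None of the sources used here gives doses, times, strain, age, a shared allele or pretreatment, or says whether cells were cultured, and no group had an inhibitor without FGF2. Nor do they say that the 2 samples of a group are independent cultures or animals, so the spread behind each p-value may be only technical. In 1 array, replicate 2 of FGF2 plus SB202190, the treatment type is labelled acclimatization and in the other 7 wait.

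Ribosome production starts in the nucleolus, where RNA polymerase I copies the ribosomal DNA repeats into a long precursor. Small nucleolar ribonucleoproteins guide methylation (box C/D) and pseudouridylation (box H/ACA) of this precursor, while processing complexes cut it and build the small and the large subunit. Growing and dividing cells make more ribosomes, and growth factor signalling and Myc are known activators of these genes in many cell types.

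Measures of array quality were close in most respects but not in all. Median signals over all probe sets were 27.8 and 26.6 on the vehicle arrays, above the 22.3 to 24.3 of all the arrays with FGF2. Across the 13174 genes tested, on the scaled log2 values, replicate arrays correlated with r between 0.980 and 0.984. Arrays of different groups correlated with r between 0.947 and 0.981. For Actb, the 3′ control probe set divided by the 5′ one, which reflects RNA quality, gave 1.26 to 1.28 in the FGF2 with U0126 arrays and 1.31 to 1.41 in the others. For Gapdh this ratio was 0.697 to 0.777 over all arrays. The control RNA cre, added during preparation, was highest on FGF2 replicate 2 (14459 for its 3′ probe set). The 9 astrocyte markers all lay above the filter, whereas 5 of 8 neuron markers (Rbfox3, Snap25, Slc17a7, Gad2 and Neurod6) and 5 of 7 microglia markers (Aif1, Cx3cr1, Itgam, P2ry12 and C1qa) lay below it. The RNA labelled as cortex thus had several defining neuron transcripts below the filter, while Syt1, Gad1 and Stmn2 lay above it. All 5 ependymal markers and all 6 meningeal fibroblast markers also lay above the filter.

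Most ribosome biogenesis genes were higher with FGF2 than with vehicle. Of the 45 genes, 32 rose and 0 fell against vehicle (adjusted p under 0.05 in limma, over all genes tested), where 18.9% of all genes tested rose and 19% fell. At an unadjusted p under 0.05 the counts were 39 higher and 0 lower. The median log2 change of the 45 was 0.66, against -0.0039 for all genes tested, where a log2 change of 1 is a 2-fold change. The change was above 0 for 44 of them, the exception being Ubtf. In RNA from a mixed sample, more RNA per cell and more cells of one type cannot be told apart.

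These values depended on how the arrays were scaled. The main scaling sets all arrays to the same distribution. With each array centred on its median instead, 41 of the 45 genes rose and 0 fell, but 30.5% of all genes tested rose and 11.2% fell, and the median change was 0.87 for the 45 and 0.16 for all genes. Leaving out single arrays gave 28 to 34 genes that rose and 0 that fell.

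**Figure D1:**
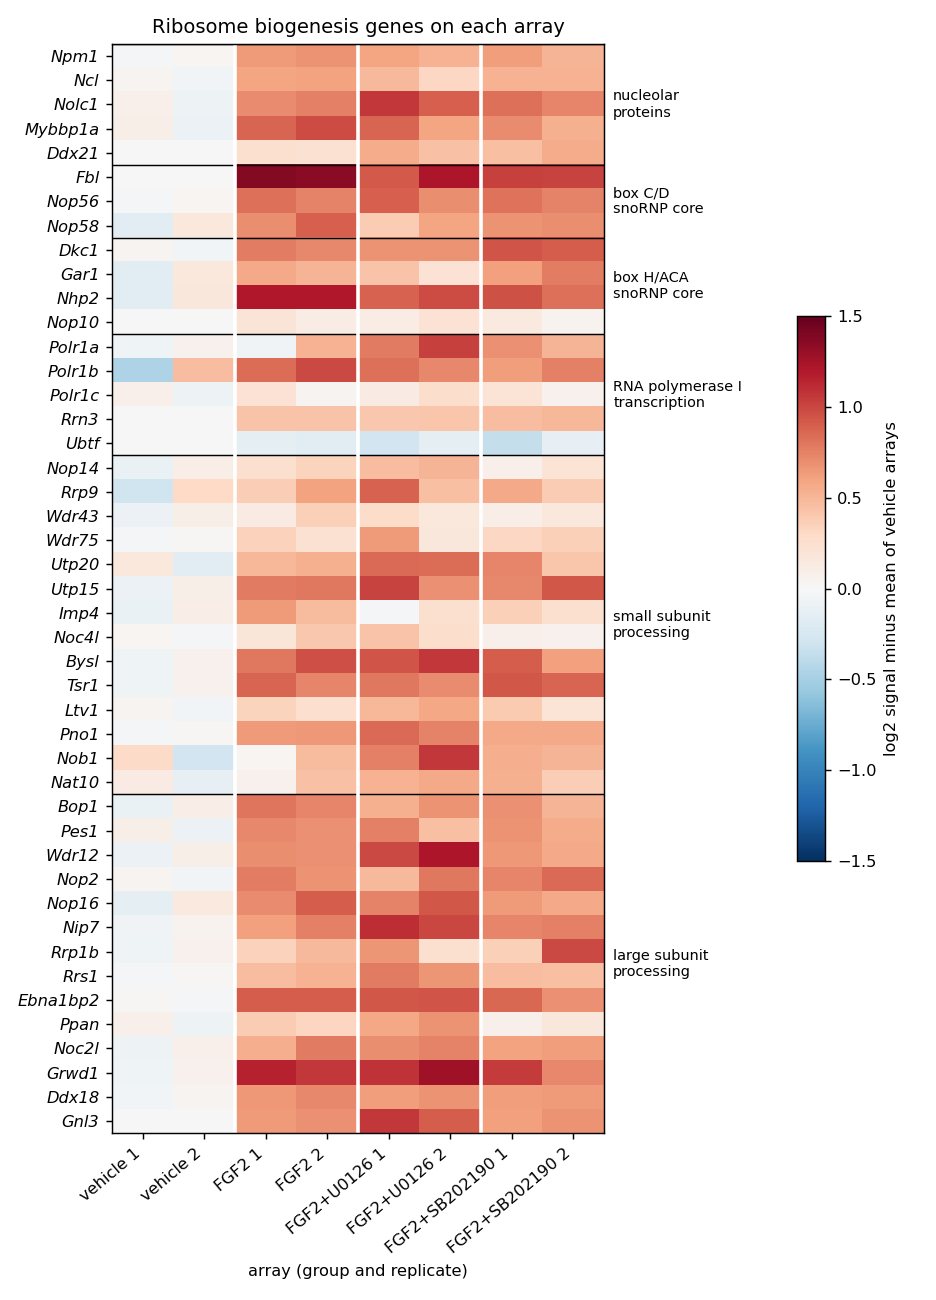
Log2 signal of each of the 45 ribosome biogenesis genes (rows, in order of role) on each of the 8 arrays (columns), minus the mean of the 2 vehicle arrays; red is higher and blue lower, from -1.5 to 1.5. The 6 arrays with FGF2 are red in nearly all rows, with Ubtf the row that is blue in all 6, and the arrays with an inhibitor are also red in most rows.

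Promoters were examined because the 32 genes moved together. RefSeq windows (GRCm38.p6) from 250 bases before to 50 bases after the start were found for 41 of the 45 genes, with 50 windows among them, and none for Rrs1, Bop1, Fbl and Npm1. The 6 letters CACGTG, the E-box bound by Myc and Max, stood in 22% of the 50 windows, in 9.52% of the windows of all genes tested and in 7.15% of all 32851 windows. The motif of ETS factors, CCGGAAGT on either strand, stood in 24% of the 50 windows, 7.25% of those of genes tested and 3.89% of all. For the GC box, GGGCGG on either strand, these shares were 70%, 60.5% and 35.7%, and for CCAAT on either strand 32%, 37.6% and 37.4%. No motif contains another, and the shares are descriptions without a test.

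The E-box was present in 10 of the 28 genes with a window that rose with FGF2 (Imp4, Nop2, Grwd1, Ltv1, Utp20, Pes1, Pno1, Mybbp1a, Tsr1 and Rrn3) and in 1 of the 13 that were not called (Wdr43). Of all 10616 genes tested that had a window, 1208 held it. In the genes that rose it began before the start in Imp4, Nop2 and Rrn3 and within the first 50 bases after it in the other 7. The ETS motif was present in 9 of the 28 (Gar1, Ebna1bp2, Noc2l, Grwd1, Nip7, Ltv1, Nhp2, Tsr1 and Rrn3), in 2 of the 13 (Ppan and Polr1c) and in 892 of the 10616. Grwd1, Ltv1, Tsr1 and Rrn3 held both. These counts are by gene, since a gene can have several windows, and the differences were not tested. The stretches below, 5′ to 3′ on the strand of the gene, are the E-boxes that lie before the start and examples of the ETS motif there, shown so that the positions can be set beside the levels of these genes; capitals mark the motif.
Nop2 (E-box, chr6:125131803-125131848, plus strand, bases -80 to -35): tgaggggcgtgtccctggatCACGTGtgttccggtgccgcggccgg
Imp4 (E-box, chr1:34439688-34439733, plus strand, bases -141 to -96): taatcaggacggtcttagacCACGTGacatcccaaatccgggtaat
Rrn3 (E-box, found 2 times, chr16:13780464-13780676, plus strand, bases -235 to -23): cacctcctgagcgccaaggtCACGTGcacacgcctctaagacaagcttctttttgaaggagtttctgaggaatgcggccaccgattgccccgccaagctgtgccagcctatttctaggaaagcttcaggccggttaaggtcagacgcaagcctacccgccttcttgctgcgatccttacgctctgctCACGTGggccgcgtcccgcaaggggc
Ltv1 (ETS motif, on each strand, chr10:13193166-13193255, minus strand, bases -118 to -29): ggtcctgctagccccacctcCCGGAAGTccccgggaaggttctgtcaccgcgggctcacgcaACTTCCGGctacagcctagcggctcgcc
Nip7 (ETS motif, chr8:107056754-107056801, plus strand, bases -123 to -76): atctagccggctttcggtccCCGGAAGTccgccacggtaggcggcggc
Nhp2 (ETS motif, chr11:51619730-51619772, plus strand, bases -43 to -1): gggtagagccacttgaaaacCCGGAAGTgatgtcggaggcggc
Grwd1 (ETS motif, chr7:45830801-45830848, minus strand, bases -59 to -12): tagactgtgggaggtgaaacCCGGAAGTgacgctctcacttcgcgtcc

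Of the 5 nucleolar proteins 4 rose with FGF2, with a median log2 change of 0.66 over the 5. For this and each role below, the count stands beside the 18.9% of all genes tested that rose. Npm1, the abundant nucleolar chaperone nucleophosmin, had signals of 2557 and 2745 on the vehicle arrays, 4389 and 4747 with FGF2, 4042 and 3835 with FGF2 and U0126, and 4283 and 3994 with FGF2 and SB202190. Both FGF2 arrays lay above both vehicle arrays, and the log2 change was 0.66 ± 0.05 (SE, 2 arrays per group, adjusted p = 7.84e-07). Ncl encodes nucleolin, which binds the precursor. Its signals went from 2374 and 2271 to 3668 and 3900, a log2 change of 0.60 ± 0.06 (adjusted p = 4.15e-06). Mybbp1a, a nucleolar protein that binds Myb, changed by 0.93 ± 0.10, and Nolc1, a chaperone of small nucleolar ribonucleoproteins, by 0.73 ± 0.11. Ddx21, a nucleolar RNA helicase, was not called. Its signals were 211 and 208 on the vehicle arrays and 244 and 241 with FGF2 (log2 change 0.23 ± 0.10, adjusted p = 0.0783 in limma). The second probe set of Ddx21 was called higher in the fit over probe sets (0.75 ± 0.17).

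All 3 core proteins of the box C/D particles rose. Fbl encodes fibrillarin, the methyltransferase of these particles, and had the largest change of the 45 genes. Its signals were 359 and 360 with vehicle, 939 and 925 with FGF2, 683 and 853 with U0126 added, and 749 and 736 with SB202190 added. The arrays with FGF2 alone were the highest and the vehicle arrays the lowest, and the change was 1.36 ± 0.09 (adjusted p = 1.04e-07). Nop56 and Nop58, the paired scaffold proteins of the particle, changed by 0.78 ± 0.09 and 0.79 ± 0.13.

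Of the 4 box H/ACA core proteins 3 rose. Nhp2 binds the guide RNA. Its signals were 543 and 690 with vehicle and 1437 and 1464 with FGF2, which gave a change of 1.20 ± 0.09 (adjusted p = 5.69e-07). The pseudouridine synthase dyskerin, from Dkc1, changed by 0.75 ± 0.09, and Gar1, which controls its activity, by 0.54 ± 0.12. Nop10, the remaining core protein, was not called, with 2199 and 2225 on the vehicle arrays and 2634 and 2544 on the FGF2 arrays. The change was small (0.15 ± 0.06, adjusted p = 0.0573 in limma).

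RNA polymerase I genes had the lowest median change of the 6 roles, 0.23. Of 5 genes 2 rose and 3 were not called, where 18.9% of all genes tested rose. Rrn3 encodes the factor that recruits the polymerase to its promoter, and the spread between its arrays was small: 293 and 289 with vehicle, 393 and 393 with FGF2, 387 and 395 with U0126, 404 and 410 with SB202190. Its change was 0.43 ± 0.08 (adjusted p = 0.000979), and all 6 arrays with FGF2 lay above the vehicle arrays. Polr1b, the second largest subunit, rose by 0.92 ± 0.24, from 48.9 and 87.8 to 112 and 124 (adjusted p = 0.00734); the vehicle arrays differed widely, and the call was lost without vehicle replicate 1 or FGF2 replicate 2. Polr1a, the largest subunit, had overlapping signals of 76.2 and 80.5 with vehicle and 71.6 and 107 with FGF2 (0.23 ± 0.19, adjusted p = 0.372). Polr1c, a subunit shared with RNA polymerase III, changed by 0.12 ± 0.10. Ubtf encodes UBF, which binds the ribosomal DNA, and was the single gene with a change below 0: 288 and 285 with vehicle and 262 and 253 with FGF2 (-0.15 ± 0.11, adjusted p = 0.309).

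In the small subunit group 8 of 14 genes rose, with a median log2 change of 0.39. Bysl, a late assembly factor, changed by 0.88 ± 0.12, and its signals went from 148 and 158 to 261 and 295. Tsr1, a GTPase-like factor of the cytoplasmic stage, changed by 0.80 ± 0.09, and Utp15, a subunit of the complex that binds the nascent precursor, by 0.78 ± 0.14. Pno1, a partner of the cleavage enzyme Nob1, went from 616 and 637 to 996 and 1003 (0.64 ± 0.06, adjusted p = 4.75e-06). Imp4, which helps the U3 particle pair with the precursor, changed by 0.55 ± 0.11 and Utp20, a large scaffold protein, by 0.51 ± 0.14. Ltv1, a late assembly factor, changed by 0.30 ± 0.09 and Noc4l by 0.29 ± 0.11. The calls of Utp20, Ltv1 and Noc4l were each lost when some single array was left out, such as FGF2 replicate 2. The 6 that were not called had values above 0: Rrp9, a protein of the U3 particle, 0.49 ± 0.20, Nop14 0.28 ± 0.12, Nat10, an RNA acetyltransferase, 0.25 ± 0.16, Nob1 0.25 ± 0.20, and Wdr75 and Wdr43, subunits of the same complex as Utp15, 0.28 ± 0.12 and 0.24 ± 0.11.

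Of the 14 large subunit genes 12 rose, with a median of 0.69. Grwd1, a WD-repeat and histone-binding factor whose promoter has both motifs, changed most. Its signals were 133 and 143 with vehicle and 304 and 284 with FGF2 (1.11 ± 0.12, adjusted p = 1.27e-05). The other genes with both motifs changed by 0.80 (Tsr1), 0.43 (Rrn3) and 0.30 (Ltv1). Whether motifs go with the size of the change was not tested. Ebna1bp2, a nucleolar assembly factor, went from 391 and 381 to 737 and 740 (0.91 ± 0.08, adjusted p = 1.08e-06). The subunits of the PeBoW complex, which is needed to process the large subunit RNA, all rose: Bop1 by 0.77 ± 0.11, Pes1 by 0.71 ± 0.11 and Wdr12 by 0.69 ± 0.11. With the probe sets of each gene averaged, which includes dim ones, the calls of Bop1 (0.064, adjusted p = 0.891) and Wdr12 (0.70, adjusted p = 0.065) were lost, and that of Pes1 was kept (0.45). Nop16 changed by 0.80 ± 0.11, the RNA methyltransferase gene Nop2 by 0.72 ± 0.13, Nip7 by 0.69 ± 0.08 and the helicase gene Ddx18 by 0.68 ± 0.08. Noc2l changed by 0.67 ± 0.13, Gnl3, which encodes nucleostemin, a nucleolar GTPase abundant in stem cells, by 0.66 ± 0.07, and Rrs1 by 0.49 ± 0.07. Ppan and Rrp1b were not called, with 0.35 ± 0.15 and 0.42 ± 0.21.

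**Figure D2:**
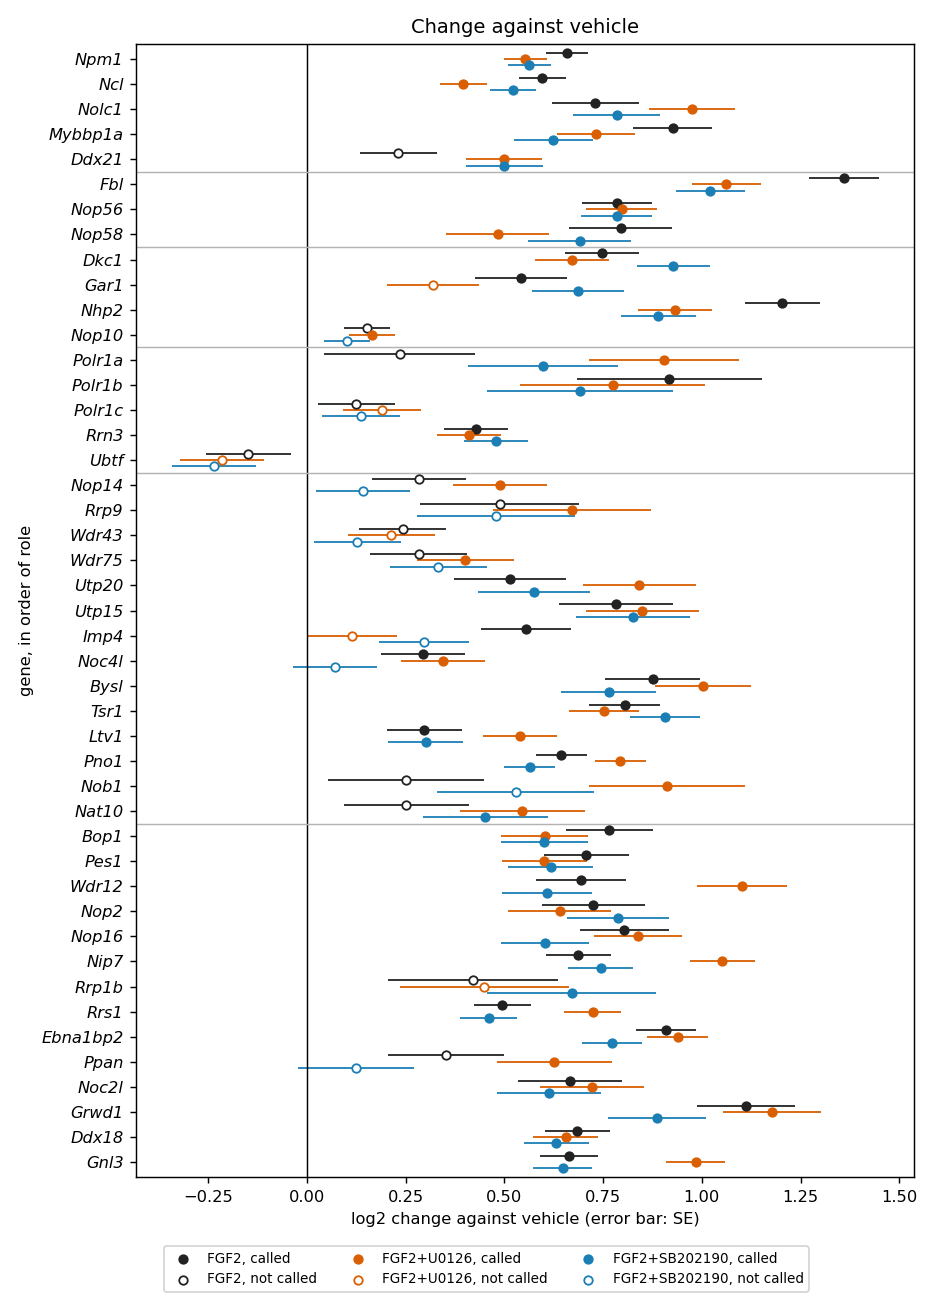
Log2 change against vehicle, with its SE, of each of the 45 genes (rows, in order of role) with FGF2 alone and with either inhibitor added; filled points are called at an adjusted p under 0.05 and open points are not. Nearly all points lie right of 0 in all 3 groups, Fbl reaches 1.36 with FGF2 alone, and Ubtf lies left of 0 in all 3.

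With U0126 added, the median level of the group differed little from FGF2 alone, while single genes differed in both directions. Against FGF2 alone, 6 of the 45 genes were higher (Polr1a, Nob1, Wdr12, Nip7, Rrs1 and Gnl3) and 3 lower (Ncl, Fbl and Imp4), at unadjusted p 11 and 5. Of all genes tested 11.6% were higher and 10.5% lower, so the 9 calls among 45 were near that background. The median change of the 45 was 0.03, and so was that of all genes. The comparison with FGF2 shares its FGF2 arrays with the comparison with vehicle.

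The 3 genes lower with U0126 had all risen with FGF2. Imp4, whose E-box is shown above, went from 420 and 373 with FGF2 to 268 and 321 with U0126 added, against 253 and 287 with vehicle. The U0126 arrays overlapped the vehicle arrays, and the change against FGF2 was -0.44 ± 0.11 (adjusted p = 0.0139). The other probe sets of Imp4 were not called with FGF2. With its probe sets averaged, both its rise with FGF2 and its fall with U0126 were no longer called. Fbl fell by 0.30 ± 0.09 (adjusted p = 0.0277) and remained 1.06 ± 0.09 above vehicle. Its second probe set did not show this, with 625 and 585 with FGF2 and 605 and 564 with U0126 (-0.06 ± 0.08). Ncl fell by 0.20 ± 0.06 (adjusted p = 0.0266), from 3668 and 3900 to 3302 and 2927. Its other probe sets gave -0.44 ± 0.12, called lower, and values of -0.41, -0.17 and 0.19, not called.

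Of the 6 genes higher with U0126, 4 had also risen with FGF2. Nip7, whose ETS motif is shown above, had 543 and 595 with FGF2, 758 and 715 with U0126, and 590 and 598 with SB202190. The U0126 arrays were above all the others (0.37 ± 0.08, adjusted p = 0.00642). Gnl3 had 718 and 739 with FGF2 and 949 and 868 with U0126 (0.32 ± 0.07, adjusted p = 0.00741). Wdr12 had 232 and 228 with FGF2 and 288 and 336 with U0126 (0.41 ± 0.11, adjusted p = 0.0213). Rrs1 differed by 0.23 ± 0.07 (adjusted p = 0.0373), and its second probe set by -0.06 ± 0.08. The other PeBoW genes gave -0.16 ± 0.11 (Bop1) and -0.11 ± 0.11 (Pes1), and neither was called. Wdr12 itself was called through 1 probe set. Its second, dimmer one had overlapping signals of 51.1 and 30.6 with FGF2 and 25.6 and 39.0 with U0126 (-0.31 ± 0.33, not called), and with its probe sets averaged the sign turned (-0.064 against FGF2).

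Polr1a and Nob1, which were not called with FGF2 alone, were the other 2. Polr1a had 132 and 154 with U0126, above 71.6 and 107 with FGF2 (0.67 ± 0.19, adjusted p = 0.0229). Nob1 encodes the nuclease that makes the final cut of the small subunit RNA. Its signals were 119 and 79.4 with vehicle, 95.6 and 130 with FGF2 and 162 and 198 with U0126 (0.66 ± 0.20, adjusted p = 0.0293). The U0126 arrays were the highest for both genes, while the vehicle and FGF2 arrays overlapped.

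Each of these 9 calls was lost when some single array was left out. Without FGF2 replicate 1 the counts were 0 higher and 0 lower, without FGF2 replicate 2 they were 4 and 1, without U0126 replicate 1 they were 3 and 2, and without U0126 replicate 2 they were 4 and 2. The sign of all 9 changes was kept in these fits. The 95% intervals of the difference between FGF2 with U0126 and FGF2 lay within a 2-fold change for 43 of the 45 genes and within 1.5-fold for 35, with the lowest bound at -0.69 (Imp4) and the highest at 1.09 (Nob1).

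**Figure D3:**
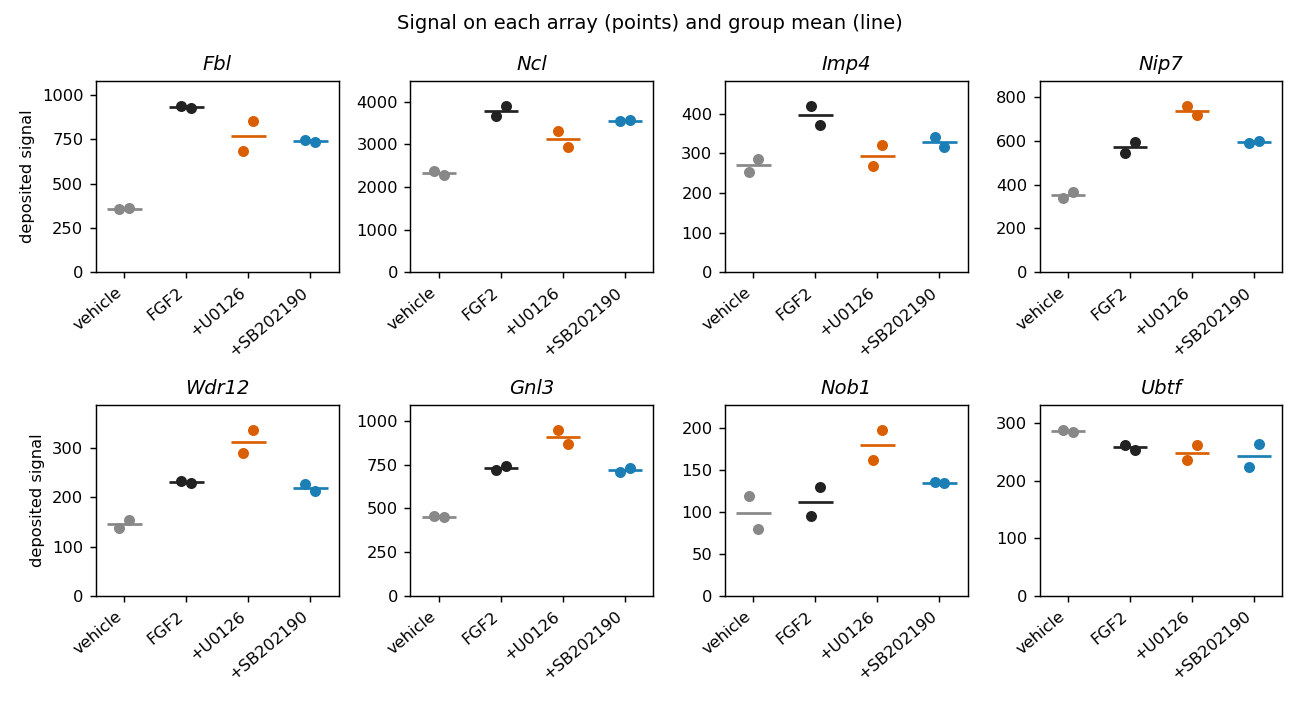
Deposited signal of 8 of the genes on each array (points, 2 per group) with the group mean (line), for vehicle, FGF2, and FGF2 with U0126 or SB202190. Fbl, Ncl and Imp4 are lower with U0126 than with FGF2 alone, Nip7, Wdr12, Gnl3 and Nob1 are higher, and Ubtf has no group above vehicle.

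With SB202190 added, 0 of the 45 genes were called higher and 0 lower than with FGF2 alone (limma), where 1.32% of all genes tested were higher and 1.7% lower. At an unadjusted p under 0.05, 1 gene was higher (Ddx21, 0.27 ± 0.10) and 4 were lower: Fbl (-0.34 ± 0.09, adjusted p = 0.0583), Nhp2 (-0.31 ± 0.09, adjusted p = 0.0972), Mybbp1a (-0.30 ± 0.10) and Imp4 (-0.26 ± 0.11). The second Fbl probe set pointed the other way (0.23 ± 0.08, not called), and the second one of Nhp2 gave -0.21 ± 0.07. A p that misses the threshold does not show that the levels were alike. The 95% intervals lay within a 2-fold change for all 45 genes and within 1.5-fold for 41, between -0.74 (Polr1b) and 0.78 (Polr1a). Without the replicate 2 array labelled acclimatization the counts were again 0 and 0. Fbl was called lower without either U0126 array and Nhp2 without either vehicle array, 1 gene in each of these fits.

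**Figure D4:**
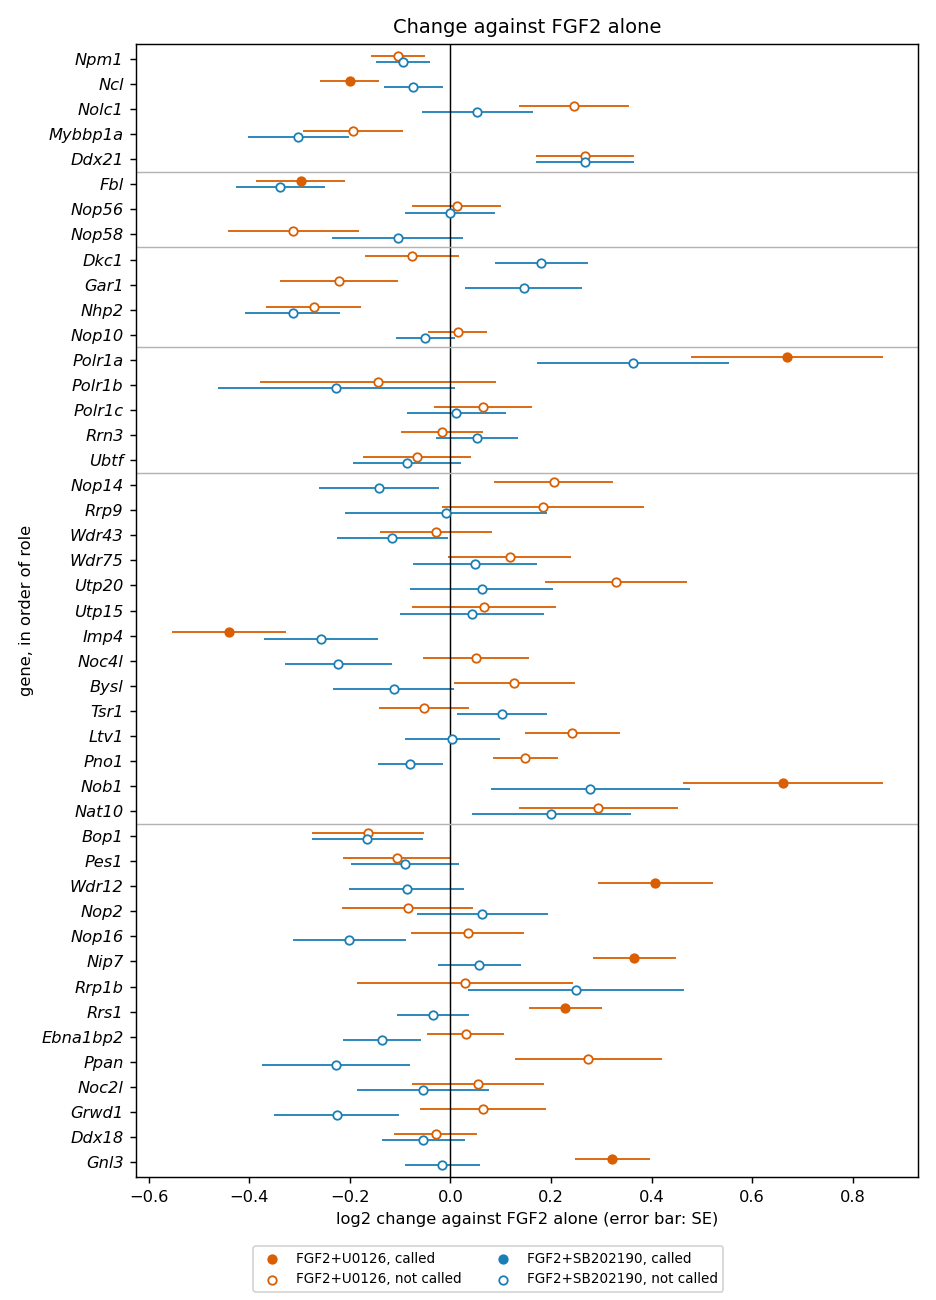
Log2 change against FGF2 alone, with its SE, of each of the 45 genes (rows, in order of role) with U0126 or SB202190 added; filled points are called at an adjusted p under 0.05. The points scatter on both sides of 0, the 9 filled points all belong to U0126 (6 right and 3 left of 0), and none belongs to SB202190.

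Against vehicle, the genes were higher with either inhibitor present. With FGF2 and U0126, 39 of the 45 rose and 0 fell, where 16.7% of all genes tested rose and 15% fell, and the median was 0.67 for the 45 and 0.01 for all genes. The 6 that were not called were Gar1, Polr1c, Ubtf, Wdr43, Imp4 and Rrp1b. With FGF2 and SB202190, 34 rose and 0 fell, where 18% of all genes tested rose and 17.8% fell, and the median was 0.60. By unadjusted p under 0.05, 0 fell with U0126 and 1 with SB202190, Ubtf (-0.24 ± 0.11, adjusted p = 0.108). By role, the U0126 counts were 5 of 5 nucleolar proteins, 3 of 3 box C/D, 3 of 4 box H/ACA, 3 of 5 RNA polymerase I, 12 of 14 small subunit and 13 of 14 large subunit genes, and with SB202190 they were 5, 3, 3, 3, 7 and 13. With each array centred on its median, 43 genes rose with U0126 (30.6% of all genes tested rose and 7.69% fell) and 41 with SB202190 (30.8% and 10.9%). Leaving out single arrays gave 32 to 39 and 29 to 35 genes that rose.

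Genes that were called against vehicle with U0126 but not with FGF2 alone were Ddx21 (0.50 ± 0.10), Nop10 (0.17 ± 0.06), Polr1a (0.90 ± 0.19), Nop14 (0.49 ± 0.12), Rrp9 (0.67 ± 0.20), Wdr75 (0.40 ± 0.12), Nob1 (0.91 ± 0.20), Nat10 (0.54 ± 0.16) and Ppan (0.63 ± 0.15). Among these, the direct test of U0126 against FGF2 called Polr1a and Nob1 alone. Gar1 (0.32 ± 0.12) and Imp4 (0.11 ± 0.11) were called with FGF2 and not with U0126, and of these the direct test called Imp4.

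Set against each other, FGF2 with U0126 exceeded FGF2 with SB202190 in 6 genes and was below it in 1 (13.3% and 2.22% of the 45). Of all genes tested 12.4% were higher and 10.3% lower, so the count higher was near that background and the count lower was below it. The 6 were Wdr12 (0.49 ± 0.11, but -0.21 with its probe sets averaged), Gnl3 (0.34 ± 0.07), Nip7 (0.31 ± 0.08), Rrs1 (0.26 ± 0.07), Pno1 (0.23 ± 0.06) and Ppan (0.50 ± 0.15). The 1 was Gar1 (-0.37 ± 0.12). Ppan, a processing factor of the large subunit, had 125 and 131 with U0126 and 85.1 and 91.9 with SB202190, without overlap. These counts share the U0126 arrays with those above, and each was lost without some single array: 1 gene was higher without U0126 replicate 1 or without SB202190 replicate 2, and 3 without SB202190 replicate 1. The count lower was 2 without U0126 replicate 1 and 0 without either FGF2 array, either SB202190 array or U0126 replicate 2.

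Most genes had several probe sets, which bind different stretches of a transcript and need not change alike. In the fit over all probe sets, 48 of the 86 rose with FGF2 and 0 fell, where 16% of all probe sets tested rose and 14.5% fell. Among the 29 genes with several probe sets above the filter, all were called in 9, some in 13 and none in 7. Opposite calls were found in 0 of the 29, and signs differed in 5. Dkc1 had 3 that rose (0.75, 1.02 and 1.17), whereas Ebna1bp2 had a second, dim probe set with signals of 31.3 and 33.7 with vehicle and 27.1 and 15.3 with FGF2 (-0.44 ± 0.41). With probe sets averaged per gene, Ebna1bp2 had a value of -0.0075 with FGF2, and the calls of Imp4 (0.25), Noc2l (0.61) and Noc4l were lost beside those of Bop1 and Wdr12. Imp4 had a probe set that rose and 2 that were not called, with 0.19 ± 0.19 and 0.02 ± 0.12. For U0126 against FGF2, 6 probe sets were higher and 5 lower, where 7.92% and 8.43% of all were. Of these, another Grwd1 probe set, which can bind other transcripts, was higher (0.83 ± 0.23) while the other 2 gave 0.06 and 0.14, and a second Npm1 probe set was lower (-0.32 ± 0.09). The Rrs1 probe set called in the gene fit had an adjusted p of 0.0503 here. For SB202190 against FGF2, 0 were higher and 0 lower, where 0.973% and 0.925% of all were.

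Related genes outside the 45 followed in part. Of 78 other ribosome assembly factors tested, 46 rose with FGF2 and 0 fell (median 0.40), where 18.9% of all genes tested rose and 19% fell. Among the 46 were Wdr46 (0.97 ± 0.09), Imp3 (0.91 ± 0.08), Nop9 (0.87 ± 0.09) and Ddx54 (0.76 ± 0.08). Imp3, a partner of Imp4 in the same U3 complex, had 326 and 321 with vehicle, 617 and 602 with FGF2 and 456 and 477 with U0126. Like Imp4 it was lower with U0126 than with FGF2 alone (-0.39 ± 0.08, adjusted p = 0.00237). With U0126 6 of the 78 were higher and 4 lower (7.69% and 5.13%, below the shares of all genes tested), including Las1l, which encodes a nuclease of large subunit processing. Las1l had 273 and 293 with vehicle, 551 and 487 with FGF2 and 292 and 286 with U0126, so the U0126 arrays lay in the vehicle range (-0.85 ± 0.09 against FGF2). Bms1, a GTPase of the small subunit, gave -0.36 ± 0.07 and Nop53 0.32 ± 0.07. With SB202190, 1 of the 78 was higher, Tex10 (0.34 ± 0.07), and 0 were lower, where 1.32% of all genes tested were higher and 1.7% lower.

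Genes for other parts of ribosome production rose with FGF2 in part, where 18.9% of all genes tested rose and 19% fell. Differences between these lists were not tested. Cytosolic ribosomal proteins could be named for 45 of 79 listed genes, since many of their probe sets carry several symbols, and their near-identical pseudogenes can share probes. Of 44 tested, 34 rose with FGF2 and 0 fell, with a median of 0.24; Rpsa changed by 0.73 ± 0.05, Rps19 by 0.55 ± 0.06, Rps18 by 0.44 ± 0.04 and Rps4x by 0.33 ± 0.04. Of 13 genes of the RNA exosome, which trims precursor ends, 8 rose (median 0.47), including Exosc8 (0.98 ± 0.08), Exosc5 (0.75 ± 0.15), Dis3 (0.69 ± 0.12) and Exosc9 (0.47 ± 0.07). Of 13 nuclear transport genes, 9 rose (median 0.34), including Ranbp1 (0.83 ± 0.07), Ipo5 (0.81 ± 0.07), the export receptor gene Xpo1 (0.55 ± 0.07) and Ran (0.54 ± 0.05). Of the 26 other RNA polymerase I and III genes, 7 were higher and 2 lower (26.9% and 7.69%), with a median of 0.04. Those that rose included Taf1d (0.80 ± 0.17), Gtf3a (0.44 ± 0.08), Polr1d (0.37 ± 0.06) and Gtf3c6 (0.35 ± 0.07).

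With U0126 against FGF2, the counts higher and lower were 2 and 4 of 44 ribosomal proteins, 2 and 0 of 13 exosome genes, 0 and 0 of 13 transport genes and 4 and 1 of 26 polymerase genes. As shares of each list these were 4.55% and 9.09%, 15.4% and 0%, 0% and 0%, and 15.4% and 3.85%, set beside 11.6% higher and 10.5% lower among all genes tested. At an unadjusted p under 0.05 the transport counts were 2 and 3. With SB202190, where 1.32% of all genes tested were higher and 1.7% lower, the counts called in the same order were 0 and 0, 0 and 0, 0 and 1 (Ranbp1, -0.27 ± 0.07) and 0 and 0 (unadjusted counts 6 and 6, 1 and 2, 0 and 4, and 1 and 1).

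**Figure D5:**
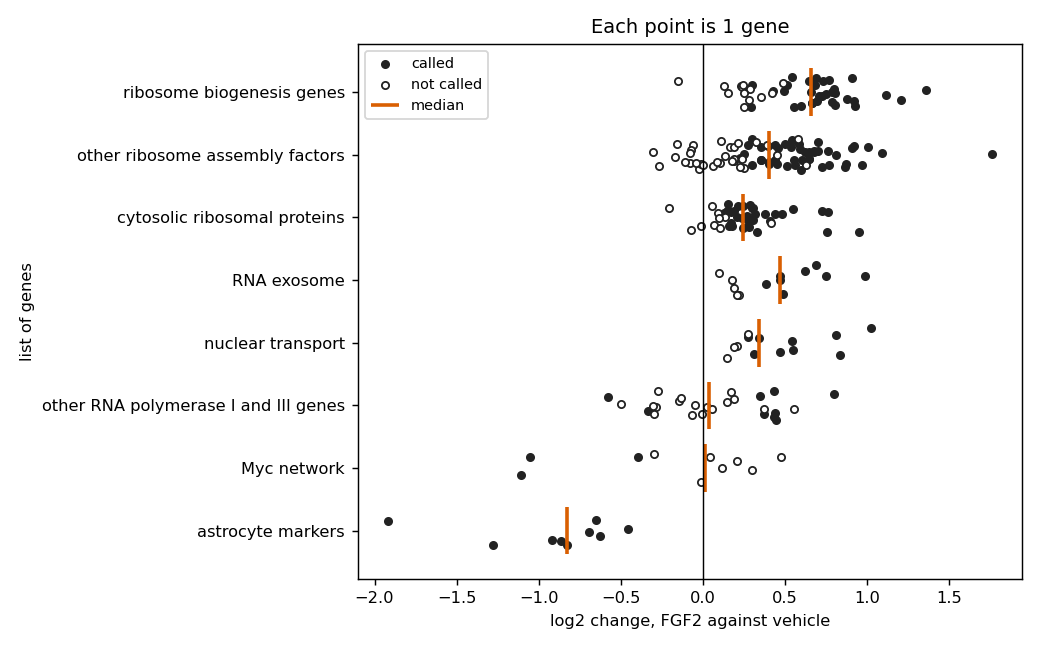
Log2 change of FGF2 against vehicle for each gene (point) of the 45 ribosome biogenesis genes, of 6 lists of related genes and of the astrocyte markers; filled points are called and the bar is the median of the list. The medians run from 0.66 for the ribosome biogenesis genes through 0.40 for other assembly factors and 0.24 for ribosomal proteins to 0.01 for the Myc network and -0.83 for astrocyte markers.

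Myc, the transcription factor that binds the E-box with Max, had 133 and 127 with vehicle, 166 and 147 with FGF2, 189 and 177 with U0126, and 159 and 177 with SB202190. All 6 arrays with FGF2 lay above the vehicle arrays. The change with FGF2 alone was not called (0.30 ± 0.12, adjusted p = 0.0709), and that with FGF2 and U0126 was (0.51 ± 0.12, adjusted p = 0.00641). With FGF2 alone, 18.9% of all genes tested rose and 19% fell. Of the 10 genes of the Myc network tested, 0 rose (1 at an unadjusted p under 0.05, limma) and 3 fell. These were Mxi1 (-1.11 ± 0.11), Mxd1 (-1.05 ± 0.29) and Mxd4 (-0.39 ± 0.09), which pair with Max in place of Myc. Mxi1 had 691 and 738 with vehicle and 365 and 313 with FGF2. Max (-0.02 ± 0.24), Mnt (0.21 ± 0.12), Mga (-0.30 ± 0.16), Mycn (0.48 ± 0.85), Mlx (0.04 ± 0.12) and Mxd3 (0.11 ± 0.26) were not called, and Mycl lay below the filter. With U0126 against FGF2, Mlx was higher (0.54 ± 0.12) and Mxd3 (-0.84 ± 0.26) and Mxd4 (-0.44 ± 0.09) lower. Of all genes tested 11.6% were higher and 10.5% lower. With SB202190, 0 of the 10 were higher and 0 lower, also at an unadjusted p under 0.05 (limma). There 1.32% of all genes tested were called higher and 1.7% lower.

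Cell type markers moved at the same time. All 9 astrocyte markers fell with FGF2 (median -0.83), and their summed signal was 21402 and 21058 with vehicle, 11101 and 10925 with FGF2, 14237 and 14359 with U0126, and 10448 and 9977 with SB202190. With U0126 against FGF2, 7 of the 9 were higher, while the 45 ribosome biogenesis genes had a median change of 0.03. All 5 ependymal markers and 4 of 6 meningeal fibroblast markers also fell with FGF2, with summed signals over the 8 arrays from 905 to 3510 and from 3662 to 8536. Summed signals of neuron markers ranged from 1393 to 2060, with 3 of 8 above the filter. Those of microglia markers ranged from 66.5 to 132 (2 of 7), of oligodendrocyte markers from 1559 to 2544 (2 of 5, without Mog, Mag and Mobp) and of endothelial markers from 87.3 to 170 (3 of 6, without Pecam1, Cldn5 and Tek). The part of these shifts, and of the Actb ratio that was lowest in the U0126 arrays, in the levels of the ribosome biogenesis genes was not tested.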

How the data were processed

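Per the file headers, the authors deposited linear intensity values, one per probe set and array; the summary algorithm is not stated in any source used here, and trimming 2% of the values at each end left a mean of 150.001 on every array. GEO's platform annotation gave 1 symbol for 34958 probe sets, several for 932 and none for 9211, and only the first kind named genes. A pseudocount of 1.772, the 10th percentile of all values, was added before log2, which understates changes of low genes, and arrays were quantile normalized. Each gene was measured by the probe set of highest mean, and genes under the 40th percentile of probe sets (log2 3.83) were left out. Limma 3.58.1 (R 4.3.3) fitted all 8 arrays with 4 group means and a variance prior that follows intensity (residual df 4, prior df 8.99). Its two-sided p-values were adjusted by Benjamini and Hochberg over 13174 genes, or 27024 probe sets, within each of 6 comparisons. Signals in the text are deposited values. The procedure was also run on simulated data with independent noise for each gene. That simulation held no shifts between arrays and cannot show whether the replicates are only technical. Same-numbered replicates did not deviate together (correlations of -0.0258 to 0.0337), so the main fit had no block.

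The genes, roles, related lists and motifs were chosen with earlier results of these data known. All 45 genes and the whole Myc list could be named, and per related list and comparison at most 4 called genes without overlap, by smallest adjusted p. The number of arrays limits the precision. Alternatives were other scalings, pseudocounts, filters and priors, only the arrays of a comparison, averaging the probe sets of a gene, omitting probe sets that may bind more than 1 transcript, a threshold of 0.01, a replicate block and leaving out arrays in turn. Python 3.11.15 and matplotlib 3.10.9 drew the figures.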

Additional observations from a re-analysis of the deposited data

How the results depend on the processing

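The count of genes that rose with FGF2 was 27 to 41 over the alternatives run, against 32, and 23 of the 32 were called in every alternative that tested them. For FGF2 with U0126 against vehicle, 25 of 39 were, for FGF2 with SB202190 against vehicle 26 of 34, and for U0126 against FGF2 or SB202190 0 of 9 and 0 of 7. The counts of U0126 against FGF2 (6 higher, 3 lower) became 0 and 0 without the intensity trend, 1 and 0 with probe sets averaged per gene, and 2 and 0 at an adjusted p under 0.01; leaving out each array gave 0 to 6 and 0 to 4. For U0126 against SB202190 (6 and 1) they were 2 and 0 without the trend and at 0.01, and 0 lower without a filter and with probe sets averaged; leaving out arrays gave 1 to 7 and 0 to 2. For SB202190 against FGF2, 1 gene was lower with a filter at the 60th percentile, 2 with only the arrays of the comparison, and 0 to 1 with arrays left out. Against vehicle, 1 gene fell with SB202190 with probe sets averaged. Over probe sets, U0126 against FGF2 (6 and 5) gave 0 and 1 without the trend, 0 and 0 at 0.01, 2 lower without a filter, and 0 to 6 and 0 to 6 with arrays left out; SB202190 against FGF2 gave 2 lower with only the arrays of the comparison and 0 to 1 with arrays left out.

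Signs turned with probe sets averaged per gene for Ebna1bp2 with FGF2 (-0.0075), Bop1 with U0126 against vehicle (-0.31), Wdr12 with U0126 against FGF2 (-0.064) and SB202190 (-0.21), and Rrs1 with U0126 against SB202190 (-0.021); another probe set turned Fbl with U0126 against SB202190 (-0.29, called) when probe sets that can bind several transcripts were left out. An average over probe sets includes dim ones. With the replicate block, 31 genes rose with FGF2 and U0126 against FGF2 gave 6 higher and 4 lower; the pairing has no source in the labels and the replicates share only a number. Where an array is left out, the lone array of its group is assumed to vary like the others.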

Other observations

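The array's control probes for 18S ribosomal RNA, the product of this pathway, belong to no comparison above. Labelling for such arrays usually primes on poly(A) tails, which ribosomal RNA lacks. The 3′ probe set read 56.5 and 70.7 on the vehicle arrays, 63.8 and 72.8 with FGF2, 72.8 and 62.6 with U0126, and 93.4 and 117 with SB202190. The 5′ probe set read 62.5 and 75.6, 55.6 and 65.1, 78.7 and 50.9, and 71.3 and 108 in the same order. The middle probe set read 91.3 and 69.5, 72.3 and 71.4, 88.6 and 66.5, and 77.2 and 83.1. The 3′ and 5′ probe sets were highest on replicate 2 of FGF2 with SB202190, and the middle one on vehicle replicate 1. For the spike-in cre, added during preparation, FGF2 replicate 2 read 14459 (3′) and 11345 (5′), against 11234 to 11852 and 8399 to 9156 on the other 7 arrays.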
